A study of Mus musculus with 121 samples.

Results

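YY1 is a zinc finger transcription factor that binds promoters and enhancers and has been linked to looping between them. In an auxin-inducible degron line the protein carries a tag that marks it for proteasomal breakdown once auxin is added. A peak that remains after auxin is a place where chromatin immunoprecipitation with the antibody still gave a called peak. Whether YY1 itself was recovered there was not tested. The regions described here are the YY1 ChIP-seq peaks obtained with an anti-YY1 antibody from Bethyl (catalogue number A301-778A, called the second antibody), with and without auxin. They were taken from the list of untreated peaks (9164) and the list of peaks after auxin (2044). An untreated peak that overlapped an auxin peak by at least 1 bp was called kept, an untreated peak without such an overlap lost, and an auxin peak without an untreated counterpart auxin-only. Together these were 9413 regions, of 406319 peaks in the 19 ChIP-seq peak lists of the study.

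The cells were an asynchronous YY1-AID subline of G1E-ER4, a mouse erythroid progenitor line derived from embryonic stem cells. Every library compared in these lists carries the degron allele, in the untreated group as well as the auxin group. The label of the second-antibody auxin libraries gives no duration, and the study's design text gives 4 h of auxin for its asynchronous YY1-AID cells. Each second-antibody list stands for 2 libraries, and each list of the first antibody (Active Motif, 61980) for 3, with 1 list per condition. Of 11 erythroid markers chosen, 10 were listed in the RNA-seq and Hbb-b1 was not. In the untreated YY1-AID cells all 10, such as Klf1 and Tal1, were at or above 1 CPM (counts scaled to library size) in all 3 libraries. Their summed level was 4998, 5293 and 4837 CPM, of which Gata1 alone gave 2472, 2721 and 2343. Markers of T cells (Cd3e and Cd4) were at 0 in all 3, those of B cells summed to at most 0.0769 CPM, and those of myeloid cells to between 0.458 and 0.499 CPM. Of the embryonic stem cell markers Pou5f1 and Sox2 were at 0 and Nanog was between 0.0769 and 0.343 CPM.

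Other lists of the series were used to describe the regions. CTCF and RAD21, a cohesin subunit, mark architectural sites. LDB1 is a scaffold protein of erythroid enhancer complexes, and H3K27ac is an acetylation of histone H3 found at active promoters and enhancers. The list of each of these 4 came from untreated and from auxin-treated YY1-AID cells. YY1 peaks of the first antibody were also available for 5 stages from prometaphase to late G1 in synchronized and sorted G1E-ER4 MD-mCherry cells (nocodazole for 7 h), and for untreated and auxin-treated cells whose sample names say CTCF-AID but whose genotype label gives the YY1-AID subline. In the latter the YY1 list after auxin was not shorter (20074 peaks, against 16355 untreated). Of the 5110 sites that both antibodies lost in the YY1-AID cells, 88.6% were in the untreated and 89.1% in the auxin list of those cells, so the share of these sites with a YY1 peak was no lower after auxin there. The stage lists are named as emergent at their stage and hardly overlap, so each holds sites that appear at that stage and not every site occupied in it. In what follows, an early G1 peak, for example, is a peak that overlaps the list of early G1 emergent sites, and the stages are those of emergence. Loops and boundaries of chromatin contact maps, each merged over untreated and auxin samples, completed the 21 lists.

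Of the untreated second-antibody peaks 1795 were kept, or 19.6% (Wilson 95% interval 18.8 to 20.4%), which is also the background share of this comparison, and 7369 were lost. The kept peaks had the same start and end in both lists without exception, so both lists give these peaks as one shared set of intervals. A further 249 peaks, 12.2% of the auxin list, were auxin-only. For comparison, 7.55% of untreated peaks of the first antibody were kept, against 87.1% of LDB1, 91.8% of H3K27ac, 92.6% of RAD21 and 92.8% of CTCF peaks. The lists hold positions without height or score, and the read depth behind them is not known here. A lost peak is therefore one that no longer passed the authors' calling, and intervals cover counting error only. There were no replicate lists, so every test below compares peaks, which are not replicates of a condition, and the spread between cultures is unknown.

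Kept peaks fell into 3 groups when each site was also looked up in the lists of the first antibody. At 1163 sites both antibodies kept their peak. At 304 sites the first antibody had an untreated peak but none after auxin, so the second alone kept it. The remaining 328 kept peaks had no untreated peak of the first antibody, and 325 of them had none in either of its lists. What else lay on each group is given next, as shares without a test between the groups.

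At the sites kept by both antibodies, H3K27ac covered 98.5% of them (1146 of 1163), and all 1163 lay in both CTCF-AID lists. Prometaphase peaks overlapped 573 (49.3%), ana/telophase peaks 576 (49.5%), early G1 peaks 11 and mid-G1 peaks 3. Only 2 of the 1163 were in none of the 5 stage lists. LDB1 covered 6.53%. The midpoints of both antibodies' untreated peaks lay a median of 4 bp apart.

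At the sites kept by the second antibody alone the midpoints of both antibodies' peaks were a median of 145 bp apart, and 14.8% (45 of 304) lay within 50 bp, against 94.1% (1094 of 1163) where both antibodies kept the peak. Peaks are 400 bp wide, so at this distance the intervals of both antibodies overlapped only in part. None of the 304 lay under a prometaphase peak, 46.4% were in no stage list, and LDB1 overlapped 26.3%. H3K27ac covered 90.1%.

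Of the kept peaks without a first-antibody peak, H3K27ac covered 61.9% (203 of 328), the untreated CTCF-AID list held 9.45% (31) and 85.4% (280) were in no stage list. CTCF peaks overlapped 28.0% of them and 23.5% of the sites kept by both antibodies. All stage and CTCF-AID lists were made with the first antibody, so low overlap with them moves with the antibody as well as with the site, and these cannot be told apart.

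**Figure D1:**
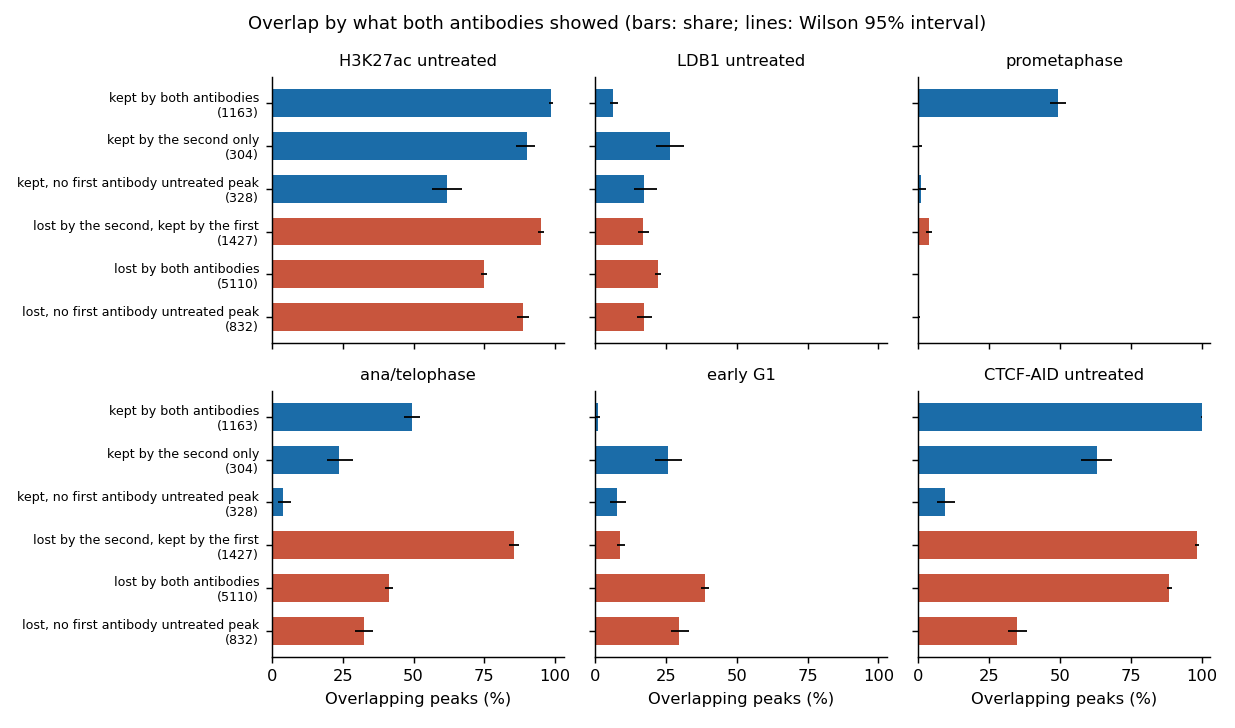
Share of second-antibody peaks (x axis, %) that overlap each of 6 lists, for 6 groups of peaks defined by what both antibodies showed (number of peaks in parentheses; blue, kept by the second antibody; red, lost by it; lines, Wilson 95% intervals). Prometaphase peaks cover 49.3% of the sites kept by both antibodies and at most 3.71% of any other group shown, and the CTCF-AID list covers 100% of those but 9.45% of kept peaks without a first-antibody peak.

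The lost peaks were split by the same rule. At 1427 sites the second antibody lost its peak while the first kept it, and 85.5% of these (1220) were ana/telophase peaks, with a median midpoint distance of 7 bp. At 5110 sites both antibodies lost their peak. H3K27ac covered 74.9% of these, against 95.1% of the former, and they included 1986 early G1 peaks (38.9%) and 2115 ana/telophase peaks (41.4%). LDB1 overlapped 22.3% of sites lost by both and 17.0% of those that only the second antibody lost. The 832 lost peaks without a first-antibody peak had H3K27ac in 88.8%.

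Retention by the 2 antibodies was then compared at the 8004 sites in both untreated lists. The first antibody kept 32.4% (31.3 to 33.4%) and the second 18.3% (17.5 to 19.2%). This difference of −14 percentage points rested on 1427 sites kept by the first antibody alone against 304 kept by the second alone (exact McNemar test, two-sided, p = 1.15e-173). Over all untreated peaks the order was the opposite, since 33167 peaks of the first antibody had no second-antibody counterpart and 1.56% of those were kept.

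Where midpoints coincided, nearly every site kept by the second antibody was also kept by the first. Among the 6575 shared sites with midpoints within 50 bp, a limit chosen after the data were seen, the second antibody kept 1139 and the first also kept 1094 of them. The first antibody kept 1311 more that the second lost. Retention there was 36.6% for the first and 17.3% for the second antibody, a difference of −19.3 points. The libraries behind the lists differ in number and possibly in depth, and the part of either in this difference was not tested.

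**Figure D2:**
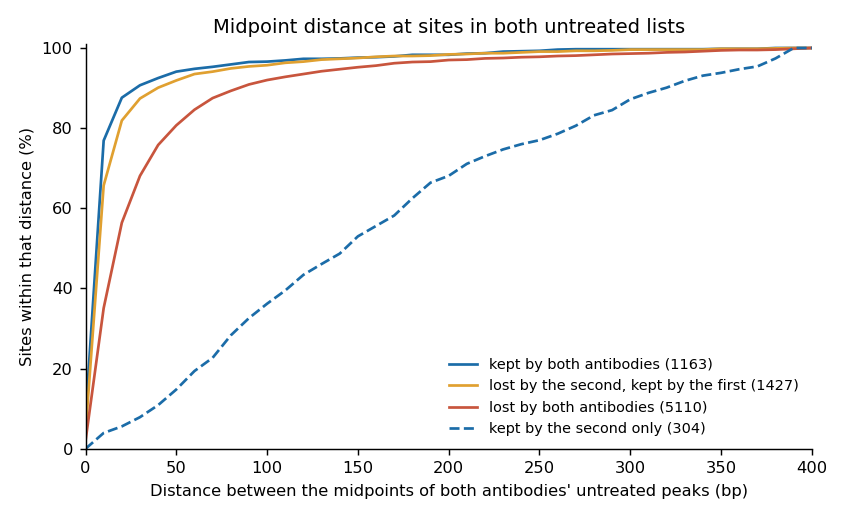
Cumulative share of shared sites (y axis, %) whose untreated midpoints for both antibodies lie within a given distance (x axis, bp), by what each antibody showed after auxin (numbers of sites in parentheses). Sites kept by the second antibody alone rise slowly, with a median of 145 bp, while the other 3 groups have medians of 4, 7 and 17 bp.

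The gap between antibodies was then taken by stage. At the 632 shared sites with a prometaphase peak the first antibody kept 99.1% and the second 90.7%, and all 53 discordant sites were kept by the first (exact McNemar test, adjusted over 9 groups of sites, p = 3.33e-16). At 3983 ana/telophase sites the values were 45.1% and 16.3%, with 1220 discordant sites one way and 72 the other (adjusted exact p = 5.00e-269). At 2203 early G1 sites they were 6.31% and 4.04% (adjusted exact p = 0.000682). At 385 mid-G1 sites they were 4.16% and 4.42%, and no difference was detectable (adjusted exact p = 1; 13 against 14 discordant sites). The differences of these differences between stages were not tested.

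Taken over all second-antibody peaks, retention was ordered by the stage list that held the peak. Only 14 second-antibody peaks were in more than 1 of the 5 stage lists. Of 636 prometaphase peaks 576 were kept (90.6%, 88.0 to 92.6%), of 4257 ana/telophase peaks 658 (15.5%), of 2463 early G1 peaks 110 (4.47%), of 437 mid-G1 peaks 23 (5.26%) and of 27 late G1 peaks 1 (3.7%). By Fisher's exact test across peaks, adjusted over 10 pairs of stages, 6 pairs differed. These were prometaphase against each other stage and ana/telophase against early G1 (odds ratio 3.91, adjusted p = 3.12e-47) and mid-G1 (3.29, adjusted p = 3.50e-10). Early and mid-G1 did not differ beyond counting error (adjusted p = 0.571), and the 27 late G1 peaks were too few to place.

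The prometaphase list was recovered almost whole. The second antibody had an untreated peak at 636 of its 681 members (93.4%) and a peak after auxin at 576 (84.6%). For the ana/telophase list this fell from 74.6% to 11.7%, for early G1 from 23.3% to 1.21% and for mid-G1 from 18.4% to 1.21%. The first antibody kept 98.8% of its own untreated prometaphase peaks, 38.7% of ana/telophase and 6.26% of early G1 peaks, each above the second. For mid-G1 it kept 1.8%, below the 5.26% of the second, and for late G1 4.72% of 106 peaks. Outside the stage lists, where the antibodies have different peaks, the second also kept the larger share. Of 1330 second-antibody peaks in no stage list 423 were kept (31.8%, 29.4 to 34.4%), against 54 of 26966 for the first antibody (0.2%).

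**Figure D3:**
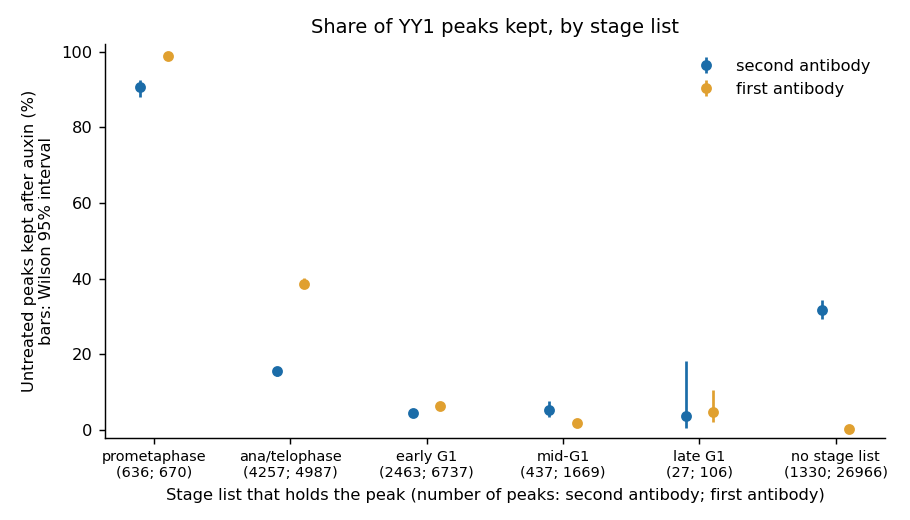
Share of untreated YY1 peaks kept after auxin (y axis, %) for peaks in each stage list or in none (x axis), for the second antibody (blue) and the first (orange), with Wilson 95% intervals. The second antibody stands at 90.6% for prometaphase peaks, 15.5% for ana/telophase peaks and 3.7 to 5.26% for later stages, and at 31.8% for peaks in no stage list, where the first antibody is at 0.2%.

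Kept and lost peaks were compared for overlap with each of the 21 other lists (Fisher's exact test across peaks, two-sided, adjusted by Benjamini-Hochberg over the 21). All 21 passed 0.05, 12 with a higher share among kept peaks and 9 with a lower one, and with this many peaks even small differences pass. In percentage points the widest gap was for peaks of the first antibody after auxin, which covered 65.0% of kept peaks and 19.4% of lost ones (odds ratio 7.69, adjusted p = 1.71e-293). By odds ratio it was for prometaphase peaks, at 32.1% and 0.814% (odds ratio 57.6). Early G1 peaks ran the other way, at 6.35% of kept and 32.1% of lost peaks (odds ratio 0.144, adjusted p = 2.88e-131).

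**Figure D4:**
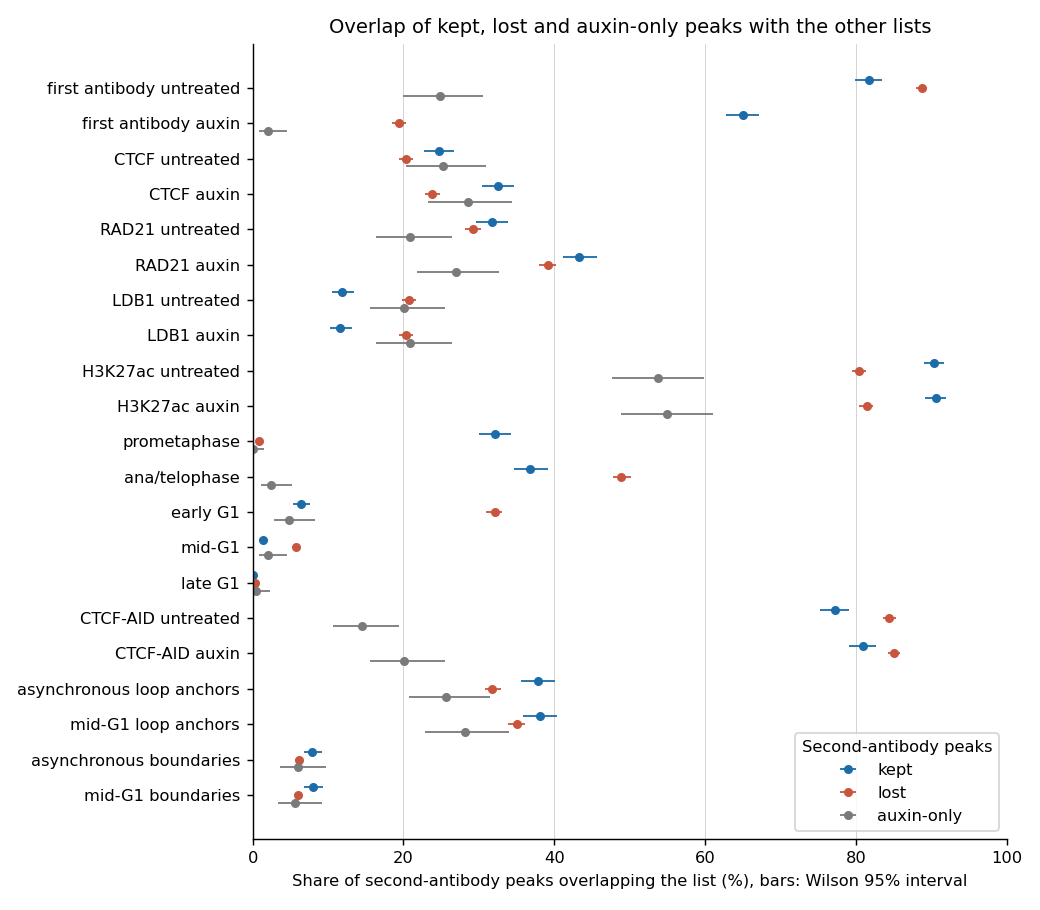
Share of kept (blue), lost (red) and auxin-only (grey) second-antibody peaks that overlap each of the 21 other lists (x axis, %; bars, Wilson 95% intervals). Kept peaks exceed lost peaks most for the first antibody after auxin (65.0 against 19.4%), then for prometaphase peaks (32.1 against 0.814%), and fall short most for early G1 peaks (6.35 against 32.1%), and auxin-only peaks are lowest for most YY1 lists.

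Over all peaks, H3K27ac was more frequent at kept sites and LDB1 at lost sites. H3K27ac covered 90.4% of kept and 80.4% of lost peaks (odds ratio 2.3, adjusted p = 2.13e-25), and LDB1 covered 11.9% and 20.7% (odds ratio 0.516, adjusted p = 1.23e-18). Set out by both marks, 24.0% of 5984 peaks with H3K27ac alone were kept, 12% of 1562 with H3K27ac and LDB1, 14.7% of 177 with LDB1 alone and 10.1% of 1441 with neither. LDB1 peaks thus went with lower retention inside acetylated regions (11.5% of kept and 23.2% of lost peaks, adjusted p = 1.83e-26). Outside them the shares were 15.1% and 10.4% (adjusted p = 0.134), and the odds ratios of the 2 strata differed (Breslow-Day test, adjusted p = 1.85e-07).

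The H3K27ac difference turned with presence of the first antibody's peak. Among peaks shared with it, H3K27ac covered 96.8% of kept and 79.3% of lost peaks (odds ratio 7.89, adjusted p = 1.80e-74). Among peaks without a first-antibody peak the order turned, at 61.9% of kept and 88.8% of lost peaks (odds ratio 0.204, adjusted p = 4.79e-23). Retention itself was 28.3% (25.8 to 30.9%) in the latter and 18.3% in the former. For LDB1 the shares were 10.6% of kept and 21.1% of lost peaks with a first-antibody peak (odds ratio 0.444, adjusted p = 7.93e-22) and 17.4% of both without one (adjusted p = 1), and the odds ratios of these strata differed (Breslow-Day test, adjusted p = 6.97e-05). The untreated CTCF-AID list covered 77.2% of kept and 84.4% of lost peaks when all were counted. Without a first-antibody peak the shares were 9.45% and 35% (adjusted p = 8.50e-20). Among peaks shared with the first antibody they were 92.4% and 90.7%, a difference that did not pass (adjusted p = 0.0602).

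The comparison was repeated without prometaphase peaks. Then 1219 kept and 7309 lost peaks remained, and the share kept was 14.3%. H3K27ac covered 86.5% and 80.4% (adjusted p = 4.10e-07) and LDB1 15.6% and 20.9% (adjusted p = 2.86e-05). No prometaphase peak was also an ana/telophase peak, so leaving out the former raises the share of the latter by construction. Ana/telophase peaks made up 36.8% of kept and 48.9% of lost peaks when all were counted, and 54.2% and 49.3% of those that remained.

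The width of the acetylated region was also recorded. Retention was 16.0% (13.2 to 19.3%) for the 556 peaks in H3K27ac regions under 1 kb wide, 22.1% for 1 to 2 kb, 25.7% (23.8 to 27.8%) for 2 to 3 kb, 23.0% for 3 to 5 kb and 15.9% (14.1 to 17.8%) for the 1479 peaks in regions of 5 kb or more. It was thus highest at intermediate widths, with intervals that did not overlap those at either end.

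Architectural factors were compared in the same way. Untreated CTCF peaks covered 24.7% of kept and 20.3% of lost peaks (odds ratio 1.29, adjusted p = 8.95e-05) and CTCF peaks after auxin 32.5% and 23.8% (odds ratio 1.54, adjusted p = 1.84e-13). Untreated RAD21 peaks covered 31.7% and 29.2% (1.13, adjusted p = 0.0429). The midpoints of kept peaks and the CTCF peaks they overlapped lay a median of 147 bp apart, and those of RAD21 peaks 168 bp. When at least 50% of a peak had to overlap, untreated RAD21 covered 19.1% of kept and 20.8% of lost peaks (adjusted p = 0.122) and the difference for untreated CTCF no longer passed (adjusted p = 0.155). That for CTCF after auxin still did, at 20.7% and 16% (adjusted p = 4.32e-06).

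Most peaks of the other factors were kept where the second antibody lost its peak. At kept and lost sites 94.4% and 92.7% of untreated CTCF peaks were kept after auxin (adjusted p = 0.413), 91.2% and 92.5% of RAD21 peaks (adjusted p = 0.413) and 99.3% and 99.1% of H3K27ac peaks (adjusted p = 0.413). Away from second-antibody sites the shares were much the same for CTCF (92.8%) and RAD21 (92.6%), and lower for H3K27ac (88.6%). These shares elsewhere were not tested. For LDB1 the share was 85.4% (182 of 213) at kept and 92.3% (1408 of 1526) at lost sites (odds ratio 0.492, adjusted p = 0.00653), with 86.6% for LDB1 peaks away from second-antibody sites. Of these 4 comparisons only that of LDB1 passed. The interval of its share at kept sites (80.1 to 89.6%) held the 86.6% seen elsewhere. That at lost sites (90.8 to 93.5%) lay above it.

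Some sites had a CTCF peak after auxin and none before. This was so at 166 of 1352 kept peaks without an untreated CTCF peak (12.3%, 10.6 to 14.1%) and at 362 of 5872 lost ones (6.16%, 5.58 to 6.81%; Fisher's exact test, odds ratio 2.13, adjusted over 4 factors, p = 9.60e-13). For RAD21 the shares were 21% and 17.1% (adjusted p = 0.00321), a difference that did not pass when at least 50% of the peak had to overlap (12.2% and 10.9%, adjusted p = 0.217) or with peaks reduced to 200 bp (adjusted p = 0.254). For LDB1 they were 1.64% and 1.45% (adjusted p = 0.748), and for H3K27ac 10.5% and 10.9% (adjusted p = 1). With 200 bp peaks the H3K27ac shares were 10.9% and 8.65% (adjusted p = 0.0249), but that setting also cut H3K27ac regions to their middle 200 bp. Untreated H3K27ac then covered 26.2% of kept peaks in place of 90.4%, so these shares are over a different set of sites. The auxin lists of CTCF and RAD21 were longer than their untreated lists (64548 against 59085 peaks, and 50028 against 39745), and the part of list length in this difference was not tested.

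Retention was also set out by both CTCF-AID lists. Of 7389 peaks found in both the untreated and the auxin list of those cells, 18.7% were kept in the YY1-AID cells. Of 220 found only in the untreated list 4 were kept (1.82%, 0.709 to 4.58%), and of 329 found only in the auxin list 71 were kept (21.6%, 17.5 to 26.3%). The 1226 peaks in neither had a share of 27.6%.

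Auxin-only peaks had few counterparts in the other YY1 lists. Of the 249, 62 (24.9%) overlapped an untreated and 5 (2.01%) an auxin peak of the first antibody, none lay under a prometaphase peak, and 225 (90.4%) were in no stage list. Their median distance to the nearest untreated peak of the first antibody was 655 bp. H3K27ac covered 53.8% (134), against 90.4% of kept peaks (adjusted p = 1.47e-40). Of the 249, 43 (17.3%) were in none of the 21 lists, against 43 of 1795 kept peaks (2.4%) and 23 of 7369 lost peaks (0.312%).

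Against kept peaks, 14 of 21 lists differed for auxin-only peaks, 12 lower and 2 higher in the latter. LDB1 was one of those higher, at 20.1% against 11.9% (adjusted p = 0.000899). RAD21 was lower (20.9 against 31.7%, adjusted p = 0.000708), while CTCF was 25.3% against 24.7% (adjusted p = 0.815).

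Contact features overlapped kept peaks somewhat more often. Anchors of loops in asynchronous cells covered 37.8% of kept and 31.8% of lost peaks (odds ratio 1.3, adjusted p = 2.70e-06), and boundaries 7.91% and 6.08% (odds ratio 1.33, adjusted p = 0.00617). For mid-G1 loops and boundaries the shares were 38.1% against 35.0% (adjusted p = 0.0172, and 0.102 with anchors widened by 10 kb) and 7.97% against 6.01% (adjusted p = 0.00377). Since loops and boundaries were merged over both conditions, they say where contacts were called and not whether auxin changed them.

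Seen from the loops, 872 of 12738 asynchronous loops (6.85%) had a kept peak in at least 1 anchor and 3201 (25.1%) a second-antibody peak of either class. An anchor with both a kept and a lost peak was counted as kept. In 71 loops both anchors held a kept peak. These had a median span of 115 kb, against 185 kb for the 9537 loops with neither. For loops with lost peaks in both anchors it was 140 kb. H3K27ac lay in both anchors of 88.7% of the 71 (79.3 to 94.2%) and of 7.08% of the 9537. The second-antibody peaks themselves mostly overlapped H3K27ac (90.4% of kept and 80.4% of lost). Classing loops by these peaks therefore largely sets this contrast. CTCF and RAD21 together lay in both anchors of 25.4% (16.7 to 36.6%) and 58.5%. Loops with lost peaks in both anchors had values of 93.2% for H3K27ac and 37.6% for CTCF with RAD21, so a high H3K27ac share was seen for both classes of peak. Among mid-G1 loops the share for CTCF with RAD21 was 36.6% (26.4 to 48.2%) with kept peaks in both anchors. With lost peaks in both it was 40.9%, and the median spans were 135 kb and 155 kb.

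Kept peaks were unevenly spread over the genome (build mm9). The share kept was between 16.0% and 21.8% on 18 chromosomes, 28.8% on chromosome 13 (120 of 417) and 10.2% on chromosome X (19 of 186). Chromosome 13 held the 3 longest runs of kept peaks less than 50 kb apart. They spanned chr13:21939690-22142805 with 30 kept peaks, chr13:23488793-23618570 with 24 and chr13:21252495-21418811 with 16, and each held 1 lost peak. Outside them 50 of 344 peaks on the chromosome were kept (14.5%, 11.2 to 18.7%). The runs were picked for their kept peaks, so leaving them out lowers this share by construction. No runs were left out on other chromosomes.

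None of the 70 overlapped an auxin peak of the first antibody or a prometaphase peak, 29 overlapped an untreated peak of the first antibody, 35 lay in H3K27ac and 13 in the untreated CTCF-AID list. In the longest run neighbouring peaks were a median of 2839 bp apart. A run of another kind lay at chr1:173152409-173276040, where all 7 kept peaks overlapped prometaphase peaks, H3K27ac and both lists of the first antibody, and no peak was lost. No gene annotation of build mm9 was used here, so genes in these runs are not named.

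**Figure D5:**
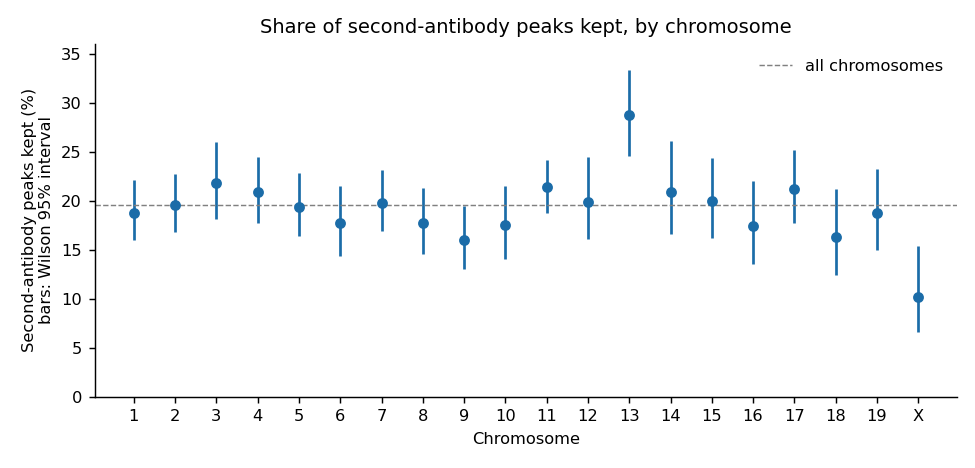
Share of untreated second-antibody peaks kept after auxin on each chromosome (points, %; bars, Wilson 95% intervals; dashed line, 19.6% over all chromosomes). Chromosome 13 stands above the rest at 28.8% and chromosome X below at 10.2%.

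A called loop joined the longest run and the second. Of the 71 loops with kept peaks in both anchors, the 3 with the longest span included one from chr13:22140001-22145000 to chr13:23500001-23505000 (1360 kb), whose anchors lie at the edge of the first run and inside the second. Another ran from chr13:22140001-22150000 to chr13:23400001-23410000 (1260 kb). The longest joined chr8:110110001-110120000 and chr8:112080001-112090000 (1970 kb), with H3K27ac in both anchors.

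Single regions show the classes at their most accompanied. The kept peak in the most lists was chr9:100543479-100543878, found in 17 of 21, among them both lists of the first antibody, CTCF, RAD21, LDB1 and H3K27ac with and without auxin, and ana/telophase. The kept peak at chr4:140703543-140703942 was in 15 lists and was a prometaphase peak. At chr4:151307662-151308061 and chr5:138228773-138229172 the kept peaks lay in 15 lists, without LDB1 but at boundaries in both lists of these.

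Among lost peaks, chr1:134264058-134264457 and chr11:79027600-79027999 were in 16 lists each. Both kept CTCF, RAD21, LDB1 and H3K27ac after auxin while both antibodies lost their YY1 peak. The first is an ana/telophase and the other an early G1 peak. At chr7:28834986-28835385 (16 lists) and chr1:145853706-145854105 (15 lists) the second antibody lost its peak and the first kept it, and only the former lacked an LDB1 peak after auxin.

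The auxin-only peak in the most lists was chr15:61990416-61990815, with 13, which overlapped an untreated but no auxin peak of the first antibody. The peaks at chr2:172416373-172416772, chr8:71317554-71317953 and chr11:87256819-87257218 were in 12 lists each. The last was the one of these 4 that overlapped a first-antibody peak after auxin, and its H3K27ac peak was listed in untreated cells only. Regions in 12 or more lists were thus found in every class, but these were picked for being in the most lists. The median was 8 lists for kept peaks, 8 for lost peaks and 3 for auxin-only peaks.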

How the data were processed

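ChIP-seq peak lists, loops and boundaries were used as the authors deposited them. They give positions on mm9 without heights. The submitters' processing notes name MACS2 2.2.7, deepTools 3.5.1 and Bowtie2. For the calling threshold and the merging of libraries into a list, details were not given in the sources used here. For RNA-seq the authors deposited estimated counts, already rounded, with Salmon 0.13.1 and DESeq2 in the submitters' processing notes. They were scaled here to CPM, counts scaled to library size, for the marker check only. The members, lists and tests were chosen with earlier results of these data known.

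Positions are given 1-based. Overlap of 1 bp counted as shared (Python 3.11.15, checked against bedtools 2.31.1). Fisher's exact test with its adjustment was tried on simulated data, and the McNemar and Breslow-Day tests were not. Shares have Wilson 95% intervals. Fisher's exact test and the exact McNemar test (two-sided, SciPy 1.17.1) and the Breslow-Day test (statsmodels 0.14.6) were run across peaks, with Benjamini-Hochberg adjustment within each family and a threshold of 0.05. Regions were named by rule, namely the 4 peaks of each class in the most lists, the 3 longest runs of kept peaks, and the 3 longest loops with kept peaks in both anchors. Chromosome 18 was left out of the named regions. The run on chromosome 1 was added after its values were seen. Alternatives were an overlap of at least 50%, peaks and H3K27ac regions reduced to their middle 200 bp, identical ends, subsets of peaks, autosomes and widened anchors. Subsets without prometaphase peaks, without a first-antibody peak or without chromosome 13, the comparison of new peaks of other factors after auxin with its alternatives, sites placed at the first antibody's peaks, and the limit of 50 bp between midpoints were chosen after seeing the data. Gene positions on mm9 were not used here, so nascent RNA was not tied to peaks.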

Additional observations from a re-analysis of the deposited data

Results flagged for a closer look

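At the 8004 sites in both untreated lists the 2 antibodies differed under the same treatment. The share kept by the second antibody minus the share kept by the first was −14 percentage points, and this difference was tested directly with the exact McNemar test (p = 1.15e-173). The antibodies' lists also stand for different numbers of libraries (2 and 3), with 1 list per condition, so antibody and library number cannot be told apart.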

How the results depend on the processing

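The share of second-antibody peaks kept was 19.6% under each overlap rule, which had to be so because kept peaks have identical ends in both lists. It was 19.8% on autosomes and 19.1% without chromosome 13. It moved to 18.3% among peaks shared with the first antibody and to 14.3% without prometaphase peaks. The number of factors with more new peaks at kept sites was 2 (CTCF and RAD21), 1 with an overlap of 50% (CTCF) and 2 with 200 bp peaks, then CTCF and H3K27ac. In the last setting H3K27ac regions were cut to 200 bp too, so the H3K27ac result there is over a different set of sites. Differences between kept and lost peaks (percentage points) that turned sign were as follows. For RAD21 untreated and auxin they were −1.72 and −0.711 with an overlap of 50%, and −1.67 and −0.743 with 200 bp peaks. Among peaks with a first-antibody peak they were 1.62 and 4.34 for CTCF-AID untreated and auxin. Among peaks without H3K27ac they were 4.67 and 4.04 for LDB1 untreated and auxin, −0.392 for H3K27ac after auxin, −1.93 for mid-G1 anchors and −1.26 for asynchronous boundaries. Without prometaphase peaks the value for ana/telophase was 4.9, as the stage lists exclude each other. Without a first-antibody peak they were 0.255 for LDB1 auxin, −26.9 and −27.1 for H3K27ac untreated and auxin, −3.36 and −5.27 for asynchronous and mid-G1 anchors and −0.393 for mid-G1 boundaries. H3K27ac kept at kept minus at lost sites was −6.86 with an overlap of 50%. New H3K27ac peaks were 3.23 and 2.23 with 50% overlap and 200 bp peaks, the latter with the acetylated regions cut as well. The cause of the other turns was not tested. With anchors and boundaries widened by 10 kb 3 of 4 comparisons still passed, and mid-G1 anchors did not (adjusted p = 0.102, and 0.117 among peaks with H3K27ac). On autosomes all 21 comparisons of kept and lost peaks held, and without chromosome 13 20 did, with late G1 no longer passing.

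No paired analysis was possible because each group has 1 list that stands for all its libraries and carries no replicate number. For the same reason no replicate was left out. The comparison of nascent RNA at genes near kept, lost and auxin-only peaks was not run, since it needs gene positions on mm9. Depth is not known for any list, so a lost peak cannot be told apart from one that fell below the calling threshold.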

Other observations

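Yy1 RNA was listed at 251, 259 and 224 CPM in the untreated YY1-AID cells and at 283, 295 and 235 after 4 h of auxin. Within each replicate number the value was higher after auxin, although the ranges of the groups overlap. This change was not tested, and the degron acts on the protein.

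Kept peaks by CTCF and RAD21 were set out in the same way as for H3K27ac and LDB1. Of the peaks with CTCF alone 25.5% (22.3 to 29.1%) were kept, with both 21.6% (19.4 to 23.9%), with RAD21 alone 20.3% (18.3 to 22.5%) and with neither 18.3% (17.4 to 19.3%).

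Of the 1795 kept peaks 559 lay within 50 kb of another kept peak with no larger gap in between, and 1236 stood alone. There were 13 runs of 5 or more kept peaks. The longest run of lost peaks, the larger class, held 20, and that of kept peaks, on chromosome 13, held 30. Outside chromosome 13 the longest run of kept peaks held 10. Run lengths were not tested. At chr11:68834024-68942700 a run of 10 kept peaks held 6 lost ones, with no auxin peak of the first antibody on the kept peaks and H3K27ac on 7.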
